A study of Mus musculus with 8 samples.

Results

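Cdkn2a, Cdkn2b and Mtap lie side by side on mouse chromosome 4, and were examined together with Cdkn2c, Cdkn2d and Cdkn1b, which complete the INK4 family and add the CIP/KIP inhibitor p27. These 6 genes were chosen by symbol, all 6 matched an identifier among the 55487 genes of the table, and 4 of them passed edgeR's filter on low counts. The main question was whether the chromosome 4 locus is transcribed in LLC cells, and the second whether any of the genes differs in cells that lack Ago2. Lewis lung carcinoma (LLC) cells are a mouse line used as a model of non-small cell lung cancer (NSCLC). RNA was sequenced from cultured LLC cells, with 4 wild-type libraries and 4 libraries of Ago2 knock-out (ΔAgo2) cells, labelled as biological replicates 1 to 4 of each genotype. The study made ΔAgo2 cells with a lentiviral CRISPR vector that carries Cas9, a guide against Ago2 and a puromycin resistance gene. Infected cells were kept under puromycin selection, and single cells were then sorted. No vector control is described for the wild-type cells, so infection, selection and a clone cannot be told apart from the genotype. Both genotypes were cultured in the same medium with serum, without a further treatment. The labels do not say that the replicates came from separate clones or cultures, and p-values therefore measure only the spread between these libraries, which may be technical.

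The members act at the restriction point of the cell cycle. INK4 proteins (p16Ink4a from Cdkn2a, p15Ink4b from Cdkn2b, p18Ink4c from Cdkn2c and p19Ink4d from Cdkn2d) bind CDK4 and CDK6 and keep them from D cyclins, so that the retinoblastoma protein stays unphosphorylated and holds E2F factors in check. p27Kip1, from Cdkn1b, binds cyclin-CDK2 complexes and is removed by the SKP2 ubiquitin ligase. Cdkn2a also encodes p19Arf from its own first exon in another reading frame, and p19Arf restrains MDM2 and so raises p53. Mtap encodes the enzyme that salvages methionine and adenine from methylthioadenosine, a by-product of polyamine synthesis, and is known for being lost together with Cdkn2a in many tumors.

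On GRCm38 (mm10), Mtap (ENSMUSG00000062937.7) lies on the plus strand of chromosome 4 from 89137122 to 89181081. Cdkn2a (ENSMUSG00000044303.6) follows on the minus strand from 89274471 to 89294653, and Cdkn2b (ENSMUSG00000073802.5) on the minus strand from 89306299 to 89311039. The first exon of the p19Arf transcript spans 89294334 to 89294653 and that of the p16Ink4a transcript 89281986 to 89282192, and both transcripts share the exon from 89276645 to 89276985. The gene count of Cdkn2a covers both transcripts. The 4 start windows of the locus, each 250 bases before to 50 bases after a RefSeq start on GRCm38.p6, are shown because Mtap was detected and its neighbours Cdkn2a and Cdkn2b were not. They are written along the strand of the gene, with the GC box, GGGCGG or its complement CCGCCC, in capitals.
Cdkn2a, p19Arf start, minus strand, chr4:89294570-89294869: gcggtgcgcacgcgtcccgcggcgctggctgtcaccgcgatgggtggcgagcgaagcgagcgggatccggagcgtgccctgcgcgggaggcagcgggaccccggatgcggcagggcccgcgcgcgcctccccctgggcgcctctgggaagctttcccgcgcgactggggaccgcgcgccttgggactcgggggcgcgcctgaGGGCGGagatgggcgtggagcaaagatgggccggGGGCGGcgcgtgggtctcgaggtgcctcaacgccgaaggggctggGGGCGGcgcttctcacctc
Cdkn2a, p16Ink4a start, minus strand, chr4:89282143-89282442: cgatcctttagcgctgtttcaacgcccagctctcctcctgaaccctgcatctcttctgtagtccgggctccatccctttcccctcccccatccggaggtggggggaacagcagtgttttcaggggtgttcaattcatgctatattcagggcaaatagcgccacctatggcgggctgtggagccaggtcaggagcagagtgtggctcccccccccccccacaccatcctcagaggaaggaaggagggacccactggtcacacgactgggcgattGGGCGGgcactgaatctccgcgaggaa
Cdkn2b, minus strand, chr4:89310983-89311282: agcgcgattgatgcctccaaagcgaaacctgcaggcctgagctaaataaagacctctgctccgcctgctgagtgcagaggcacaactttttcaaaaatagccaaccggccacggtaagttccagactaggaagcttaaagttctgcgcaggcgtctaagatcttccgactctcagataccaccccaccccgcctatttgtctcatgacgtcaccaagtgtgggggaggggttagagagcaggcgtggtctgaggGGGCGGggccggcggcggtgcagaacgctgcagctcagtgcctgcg
Mtap, plus strand, chr4:89137120-89137419: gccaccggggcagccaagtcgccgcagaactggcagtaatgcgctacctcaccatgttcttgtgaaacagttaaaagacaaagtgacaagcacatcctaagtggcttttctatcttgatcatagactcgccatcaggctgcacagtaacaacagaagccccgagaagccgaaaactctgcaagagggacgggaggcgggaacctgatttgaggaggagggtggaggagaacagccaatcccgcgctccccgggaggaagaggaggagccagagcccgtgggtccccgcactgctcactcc

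The p19Arf window held 45 CpG dinucleotides and 77.0% GC, and 98.1% of the 32851 promoters in the RefSeq table held fewer CpG. The Cdkn2b window held 18 CpG, the Mtap window 14 and the p16Ink4a window 12, against a median of 7 over all promoters. By CpG content the Mtap window therefore fell between those of Cdkn2b and p16Ink4a. The search of both strands for the GC box, a motif bound by SP1-family factors, found 3 in the p19Arf window, 1 in the p16Ink4a window, 1 in the Cdkn2b window and 0 in the Mtap window. Of all promoters in the table, 35.7% held at least 1. The RefSeq start of Mtap lies inside its first exon in the GENCODE annotation, 89137122 to 89137524, so most of the Mtap window is annotated exon. The other windows lie mostly before the first exon of their transcript. The CpG and GC box values of the Mtap window therefore do not compare like with like.

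Cdkn2a and Cdkn2b were not detected in LLC cells of either genotype, whereas Mtap, 93.4 kb away, was among the more highly expressed genes. Cdkn2a had 0 counts in each of the 4 wild-type and each of the 4 ΔAgo2 libraries, and so had Cdkn2b. The 8 libraries held 39628101 to 68530912 counts each and 411852022 in all. A count of 0 allows up to 3 counts, which is 0.0438 to 0.0757 CPM (here counts per 1000000 of the unscaled library total) in a single library and 0.00728 CPM over all 8. These limits cover counting error only. Neither gene could be tested between genotypes. A count of 0 in every library was found for 49.9% of all genes in the table and for 24.7% of protein-coding genes, so it is a common state in itself. None of the 1070 words of 100 bases in the Cdkn2a transcripts, and none of the 1291 in the Cdkn2b transcript, occurred in a transcript of another gene, so a read of that length from either gene matches no other annotated transcript in full. Deletion and silencing of the 2 genes cannot be told apart from RNA counts.

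Mtap was counted 8255, 11456, 10806 and 4778 times in wild-type replicates 1 to 4, and 10313, 7124, 6365 and 8695 times in ΔAgo2 replicates 1 to 4. In TPM (transcripts per 1000000, a level scaled for gene length and depth) it stood at 160.65, 196.91, 170.39 and 102.02 in wild-type, and at 196.32, 190.45, 163.56 and 180.07 in ΔAgo2 libraries. Wild-type replicate 4 was the lowest, and the genotypes overlapped. Mean TPM over the 8 libraries was higher for Mtap than for 93.7% of the 14228 tested genes.

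**Figure D1:**
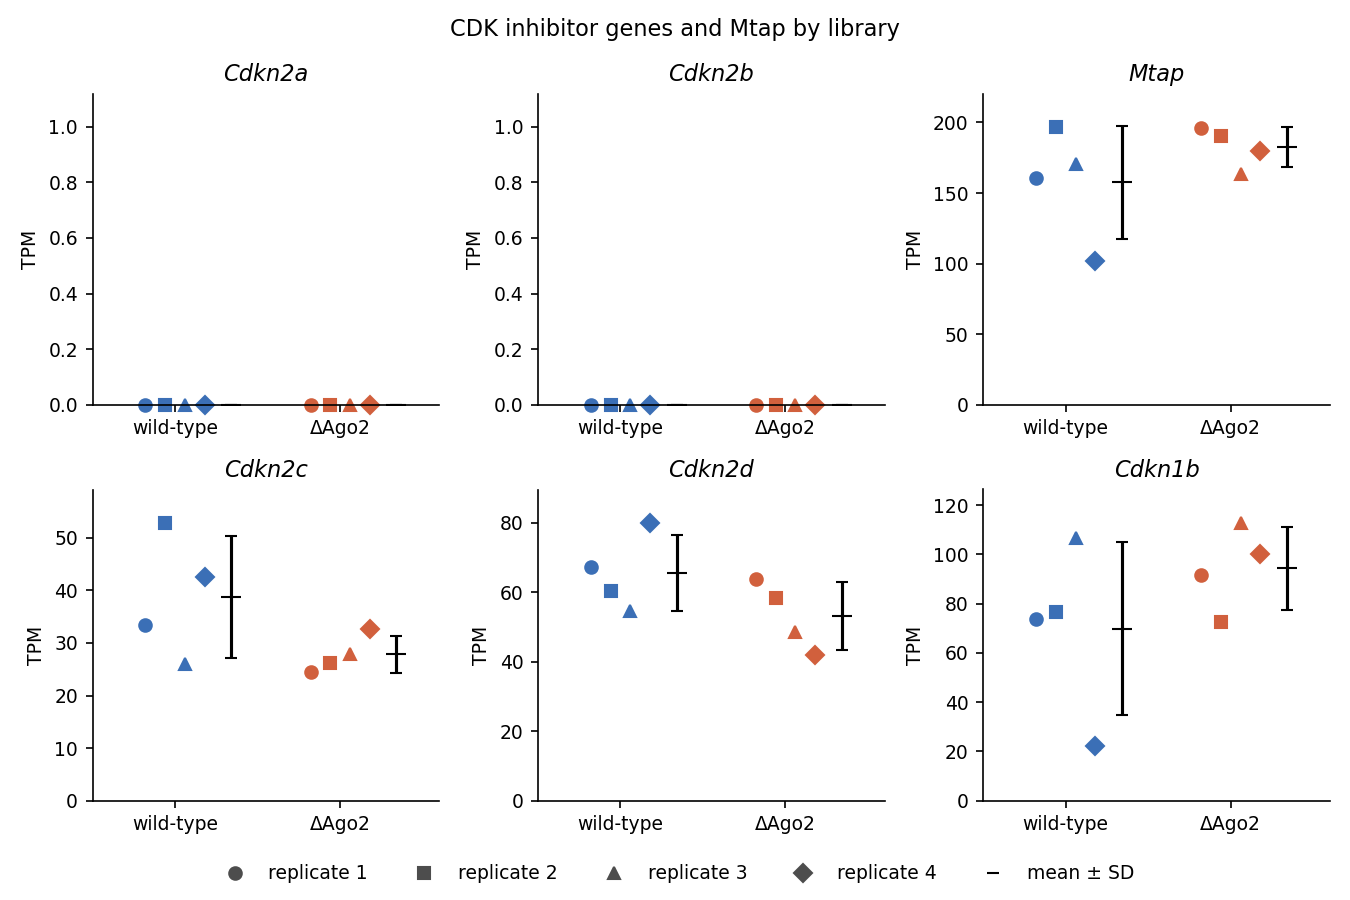
TPM of the 6 genes in each library, with wild-type and ΔAgo2 on the horizontal axis, 1 symbol per replicate, and bars for the mean ± SD of 4 libraries. Cdkn2a and Cdkn2b sit at 0 in all 8 libraries, Mtap between 102.02 and 196.91 TPM, and the genotypes overlap for each of the other 4 genes.

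The window from 1 Mb before Cdkn2a to 1 Mb after Cdkn2b held 71 annotated genes, all with a row in the table. Beside Mtap, 7 genes of the window had more than 3 counts in every library, and all 7 lay on the Mtap side. Most annotated genes of the window lie on that side. Beyond Cdkn2b it holds only Gm12609, Gm12610, Gm12608, Gm27580, Dmrta1, Gm12629 and Zfp352, too few to compare the sides. Klhl9, an adaptor of a cullin ubiquitin ligase, summed to 50557 counts over the 8 libraries, and Focad, which encodes focadhesin, to 29671. Hacd4, which takes part in the elongation of very long chain fatty acids, summed to 6093 counts. The noncoding genes AL805899.1, Gm12602, Wincr1 and AL805899.2 summed to 8054, 3317, 2628 and 239 counts, so RNA was detected on that side up to Mtap. The last gene with counts before Cdkn2a was Gm12606, a long noncoding RNA on the minus strand whose near edge lies 1.07 kb from Cdkn2a. The wild-type libraries 1 to 4 counted Gm12606 17, 18, 3 and 0 times and the ΔAgo2 libraries 6, 12, 16 and 15 times.

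Cdkn2a and Cdkn2b opened a run of 6 genes at 0 counts in all 8 libraries, together with Gm12609, Gm12610, Gm12608 and Gm27580. This run covers 189 kb, from 89274471 to 89463487. The next gene, Dmrta1, which encodes a DM-domain transcription factor, had 3 counts in all. Between the near edges of Gm12606 and Dmrta1, 406 kb held no count on any annotated gene. Runs of at least 6 neighbouring genes at 0 were not rare, since 960 of them over all chromosomes held 24.7% of the genes in the table. The interferon cluster on the far side of Mtap was also barely counted, and 12 of its 18 genes named as interferons had 0 counts everywhere and none had more than 7 in a library.

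**Figure D2:**
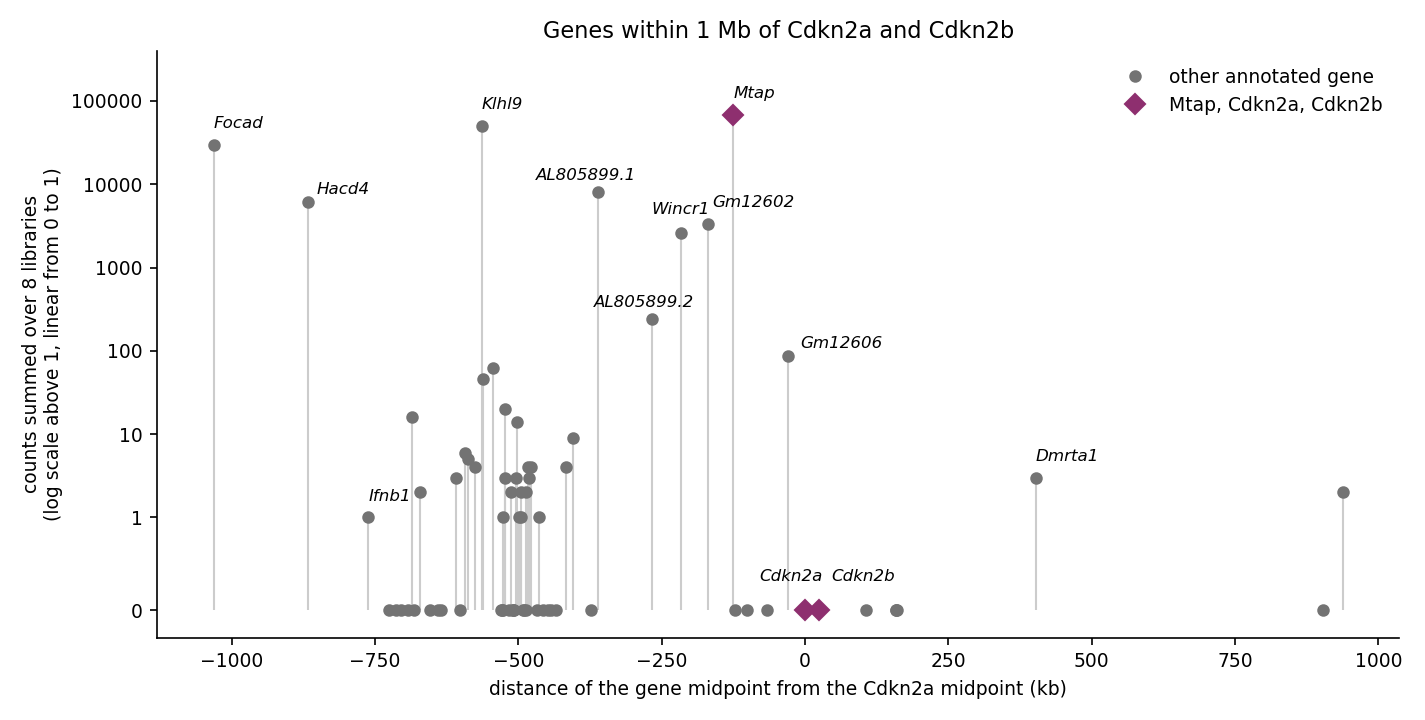
Counts summed over 8 libraries (vertical axis, log scale above 1 and linear from 0 to 1) for the 71 genes of the window, against the distance of each gene's midpoint from that of Cdkn2a in kb. Mtap stands at 67792 counts, Cdkn2a and Cdkn2b at 0, and Dmrta1 at 3.

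The other 3 inhibitor genes were expressed in all libraries. Cdkn2c (ENSMUSG00000028551.14) lies on the minus strand of the same chromosome from 109660876 to 109667189, 20.3 Mb from Cdkn2b. Cdkn2d (ENSMUSG00000096472.2) spans 21288410 to 21291407 of chromosome 9, on the minus strand, and Cdkn1b (ENSMUSG00000003031.14) spans 134920401 to 134925513 of chromosome 6, on the plus strand. Ordered by mean TPM over the 8 libraries, Mtap came first, then Cdkn1b, Cdkn2d and Cdkn2c, with Cdkn2a and Cdkn2b at 0. In ΔAgo2 cells the TPM ranges of neighbours in this order did not overlap. In wild-type cells the ranges of Mtap and Cdkn1b overlapped, as did those of Cdkn1b and Cdkn2d, while those of Cdkn2d and Cdkn2c were apart. Within libraries, Mtap was above Cdkn1b in 8 of 8, Cdkn1b above Cdkn2d in 7 of 8 and Cdkn2d above Cdkn2c in 8 of 8.

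One wild-type library stood apart, and it enters the values of all 4 detected members. The median Spearman correlation with the libraries of its own genotype was 0.864 for wild-type replicate 4, against 0.948 to 0.961 for the other wild-type and 0.985 to 0.986 for the ΔAgo2 libraries. The deviation of its genes from the mean of the other wild-type libraries correlated with transcript GC content (Spearman's rho across genes 0.722, where genes are not independent replicates). The other wild-type libraries gave -0.427 to -0.509. Each was set against a mean that includes wild-type replicate 4, so these values are not independent of it. The longest transcripts of Cdkn2c and Cdkn2d hold 58.0% and 55.8% GC, and those of Mtap and Cdkn1b 45.9% and 43.1%, against a median of 49.6% over the tested genes. The members are therefore also given without this library and with the GC trend of each library removed, and other genes without this library where that changes the direction or moves the value by more than 1.5 times. The CPM of Ago2 itself, scaled with edgeR's TMM factors, was 303.6 ± 165 in wild-type and 351 ± 55.7 in ΔAgo2 libraries (SD, n = 4 each). Its log2 fold change of 0.21 (adjusted p = 0.908, from edgeR's quasi-likelihood F test and the Benjamini-Hochberg method over all genes) was -0.047 without wild-type replicate 4, so the transcript did not separate the genotypes and libraries are named by their labels. The paper examined Ago2 protein in wild-type and ΔAgo2 LLC cells by Western blot, and RNA counts do not measure protein. Of the defining markers, the epithelial genes Epcam and Cdh1 had 0 to 1 and 1 to 9 counts. The keratin gene Krt19 had 10 to 139, the keratin genes Krt8 and Krt18 at least 2570 and 5061 and the mesenchymal gene Vim at least 195705. Of the 6 alveolar markers 4 were at 0 everywhere (Nkx2-1, Sftpa1, Sftpb and Scgb1a1) and Sftpc had at most 1 count, whereas Napsa had 7 to 93. Napsa was lower in every ΔAgo2 than in every wild-type library in CPM, as were 2.98% of all tested genes (log2 fold change -2.35, edgeR's adjusted p = 0.0824). Of the 6 immune markers, Ptprc, Itgam and Cd3e had at most 2 counts, while Lyz2 had 25 to 163, Cd79a 3 to 12 and Csf1r 0 to 8. Summed TPM of the alveolar list was 0.8 to 1.94 in wild-type and 0.16 to 0.41 in ΔAgo2 libraries, and that of the immune list 1.45 to 6.75 and 1.99 to 2.82. That of the fibroblast and endothelial list was 5.44 to 23.51 in wild-type and 14.95 to 29.7 in ΔAgo2 libraries. Of its genes, Pdgfra had 387 to 3498 counts and no other more than the 221 of Pdgfrb. The part of these lists in the members' values was not tested. In bulk RNA, fewer cells that express a gene and less RNA per cell cannot be told apart.

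None of the 4 tested members passed the test between genotypes. edgeR's quasi-likelihood test called 42 of the 14228 tested genes (0.295%) at an adjusted p under 0.05, of which 11 (0.0773%) were higher and 31 (0.218%) lower in ΔAgo2 cells, and 0 of the 4 members. DESeq2, which called 399 of the 27620 genes it gave a p-value, also called 0 of the 4. At an unadjusted p under 0.05, edgeR found 1 member, Cdkn2c, lower in ΔAgo2 cells, where 7.34% of all tested genes passed and 4.62% were lower. In 0 of the 4 were the genotypes apart in CPM, against 6.07% of all tested genes (3.09% higher and 2.98% lower in ΔAgo2 cells). The median over the 14228 genes was a log2 fold change of -0.11.

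Cdkn2c, whose product p18Ink4c holds back CDK4 and CDK6, was counted 1432, 2560, 1377 and 1661 times in wild-type and 1071, 817, 905 and 1311 times in ΔAgo2 replicates 1 to 4. Its TPM was 33.47, 52.85, 26.08 and 42.6 in wild-type and 24.49, 26.23, 27.93 and 32.61 in ΔAgo2 libraries. Wild-type replicate 2 was the highest, and wild-type replicate 3 lay within the ΔAgo2 range. On the CPM scale Cdkn2c averaged 34.4 ± 13.2 in wild-type and 21.0 ± 3.22 in ΔAgo2 cells (SD, n = 4 each). The log2 fold change was -0.71 with a standard error of 0.32 (edgeR's quasi-likelihood test, adjusted p = 0.677). The unadjusted p was 0.0484 by edgeR and 0.0857 by an exact two-sided permutation test of log2 CPM over the 8 libraries, which cannot go below 0.0286. The fold change was -0.44 without wild-type replicate 4 and -0.39 after the GC correction.

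Cdkn2d, the gene of p19Ink4d, was counted 1685, 1711, 1691 and 1826 times in wild-type replicates 1 to 4 and 1633, 1066, 920 and 988 times in ΔAgo2 replicates 1 to 4. Its TPM was 67.21, 60.28, 54.65 and 79.91 in wild-type and 63.71, 58.41, 48.45 and 41.94 in ΔAgo2 libraries. ΔAgo2 replicates 1 and 2 lay within the wild-type range and ΔAgo2 replicates 3 and 4 below it. On the CPM scale the means were 35.1 ± 15.1 and 23.3 ± 3.50 (SD, n = 4 each), and the log2 fold change was -0.59 with a standard error of 0.32 (edgeR's quasi-likelihood test, adjusted p = 0.729). It was -0.25 without wild-type replicate 4 and -0.28 after the GC correction.

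Cdkn1b, the gene of p27Kip1, was counted 5336, 6301, 9552 and 1464 times in wild-type and 6783, 3831, 6192 and 6834 times in ΔAgo2 replicates 1 to 4. Its TPM was 73.59, 76.76, 106.74 and 22.15 in wild-type and 91.51, 72.58, 112.77 and 100.3 in ΔAgo2 libraries. Wild-type replicate 4 was below all other libraries, and the other 3 wild-type libraries spanned most of the ΔAgo2 range. The CPM means were 96.3 ± 40.3 in wild-type and 121 ± 26.0 in ΔAgo2 cells (SD, n = 4 each), and the log2 fold change was 0.32 with a standard error of 0.35 (edgeR's quasi-likelihood test, adjusted p = 0.830). Without wild-type replicate 4 it was 0.10, and after the GC correction 0.091.

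Of the 4 tested members, Mtap varied least in CPM within both genotypes relative to its mean. Its CPM averaged 160 ± 8.23 over wild-type and 164 ± 5.95 over ΔAgo2 libraries (SD, n = 4 each), and its log2 fold change was 0.04 with a standard error of 0.22 (edgeR's quasi-likelihood test, adjusted p = 0.971). Leaving out each library in turn gave fold changes between 0.015, without wild-type replicate 4, and 0.069. After the GC correction the fold change turned to -0.20 (edgeR, adjusted p = 0.795). The 13 tested genes of methionine salvage and polyamine synthesis around it had a median log2 fold change of -0.054, with 4 above and 9 below 0 and 0 called. Among them Odc1, which makes putrescine, had a log2 fold change of 0.52 and Srm, which makes spermidine, of -0.70, and neither passed the test (edgeR, adjusted p = 0.740 and 0.746). Without wild-type replicate 4 they were 0.72 and 0.11, so Srm turned.

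With Cdkn2a and Cdkn2b at 0, the INK4 transcripts of these cells came from Cdkn2c and Cdkn2d. Summed TPM of the family was 100.68, 113.13, 80.73 and 122.51 in wild-type and 88.2, 84.64, 76.38 and 74.55 in ΔAgo2 replicates 1 to 4. ΔAgo2 replicates 1 and 2 exceeded wild-type replicate 3, so the genotypes overlapped. Means were 104 ± 18.1 and 80.9 ± 6.53 TPM (SD, n = 4 each), and the exact two-sided permutation test gave p = 0.0857. Cdkn2c made up 36.8% ± 6.72 of this TPM in wild-type and 34.8% ± 7.002 in ΔAgo2 cells (exact two-sided permutation test, p = 0.657).

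**Figure D3:**
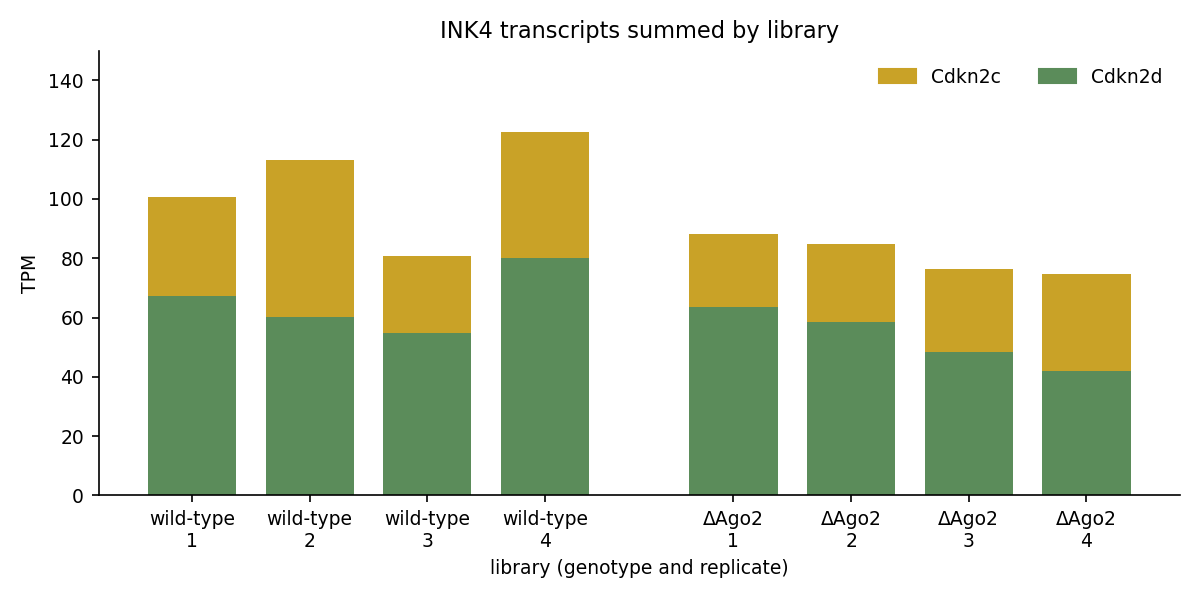
TPM of Cdkn2c and Cdkn2d stacked for each library, with genotype and replicate on the horizontal axis. The sums run from 80.73 to 122.51 TPM in wild-type and from 74.55 to 88.2 TPM in ΔAgo2 libraries, and Cdkn2d is the larger share in all 8.

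The kinases and cyclins that INK4 proteins oppose were all expressed. Of the 5 genes, edgeR called 0 at an adjusted p under 0.05 and 2 higher in ΔAgo2 cells at an unadjusted p under 0.05, where 2.72% of all tested genes were as well. Ccnd1, the gene of cyclin D1, stood at 345.23, 440.64, 383.95 and 503.34 TPM in wild-type and at 1065.81, 1006.94, 717.14 and 900.62 TPM in ΔAgo2 replicates 1 to 4. The genotypes did not overlap in TPM, but did in CPM, where wild-type replicate 4 exceeded ΔAgo2 replicate 3. The share of all tested genes that are apart in TPM was not computed. The CPM means were 663 ± 270 and 1209 ± 151 (SD, n = 4 each), and the log2 fold change was 0.87 with a standard error of 0.32 (edgeR's quasi-likelihood test, adjusted p = 0.540). Without wild-type replicate 4 it was 1.20 and passed the threshold (edgeR, adjusted p = 0.0261), in a fit that called 113 of 14541 genes. Leaving out any other library gave no call of Ccnd1 (edgeR, adjusted p = 0.403 to 0.975).

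Cdk6 stood at 24.31, 25.7, 21.03 and 4.2 TPM in wild-type and at 42.97, 41.09, 36.58 and 30.65 TPM in ΔAgo2 replicates 1 to 4. All ΔAgo2 libraries were above all wild-type libraries, in TPM and in CPM, with wild-type replicate 4 the lowest. In CPM this held for 3.09% of all tested genes, and the share in TPM was not computed. The log2 fold change was 0.91 with a standard error of 0.39 (edgeR's quasi-likelihood test, adjusted p = 0.664), and 0.63 without wild-type replicate 4 (adjusted p = 0.145). Cdk4 varied from 187.3 to 654.68 TPM in wild-type, where replicate 4 was the highest, and from 359.54 to 454.59 TPM in ΔAgo2 libraries. Its log2 fold change of -0.26 (edgeR, adjusted p = 0.904) became 0.43 without wild-type replicate 4. Ccnd2 and Ccnd3, the genes of the other D cyclins, had log2 fold changes of 0.16 and -0.58 (edgeR, adjusted p = 0.926 and 0.784), which were -0.098 and 0.15 without that library.

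**Figure D4:**
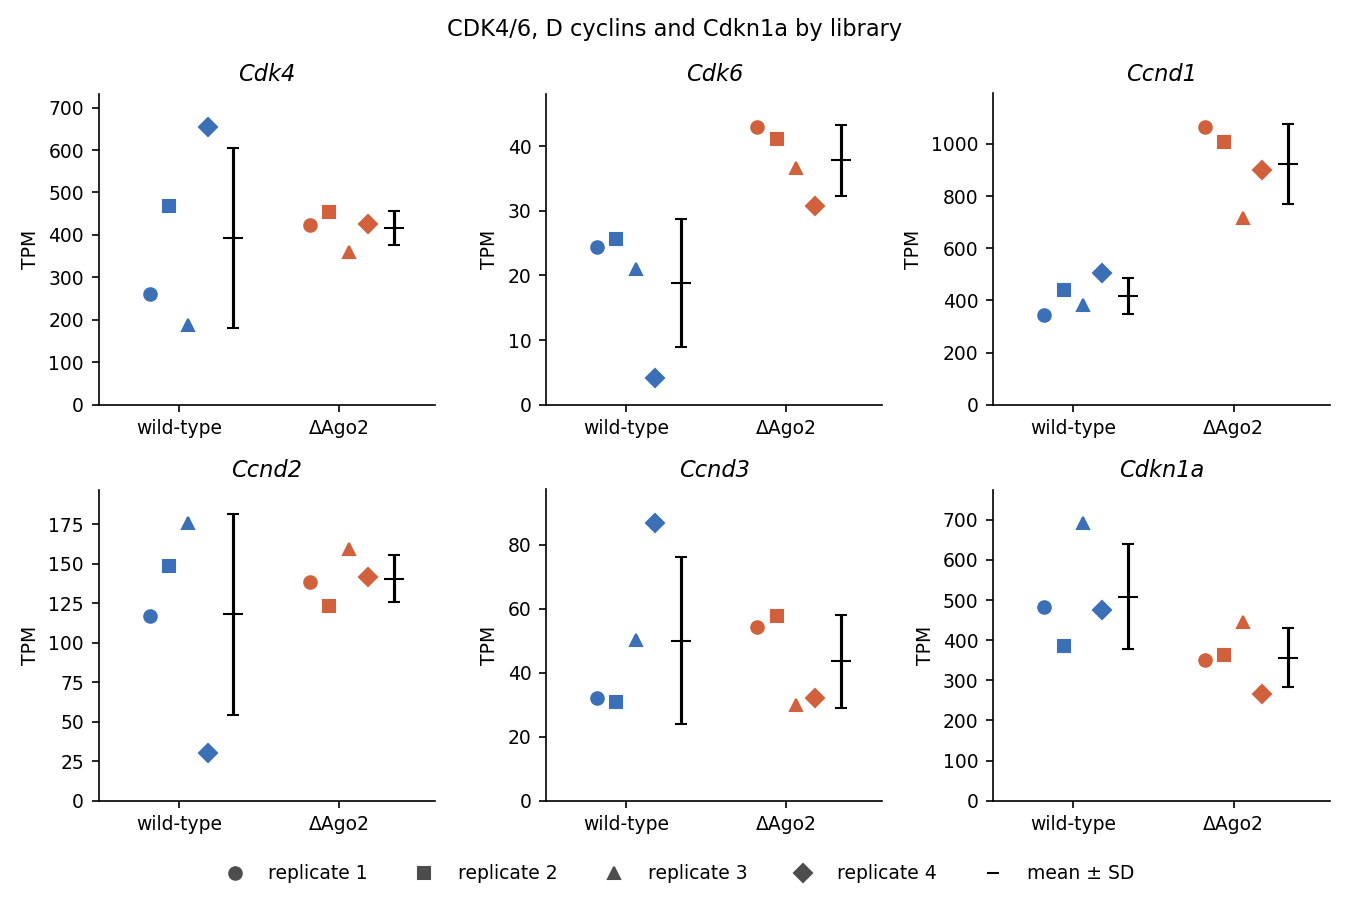
TPM of the kinases Cdk4 and Cdk6, the D cyclins and Cdkn1a in each library, with wild-type and ΔAgo2 on the horizontal axis, 1 symbol per replicate, and bars for the mean ± SD of 4 libraries. Ccnd1 and Cdk6 do not overlap between genotypes in TPM, while Ccnd1 does in CPM. Wild-type replicate 4 is the lowest library for Cdk6 and Ccnd2 and the highest for Cdk4 and Ccnd3.

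Of the other CIP/KIP inhibitors, Cdkn1a, the p53-responsive gene of p21, was abundant and Cdkn1c, the gene of p57, had 2 counts in ΔAgo2 replicate 2 and 0 in the other 7 libraries. Cdkn1a stood at 483.56, 385.26, 692.59 and 474.17 TPM in wild-type and at 351.79, 364.36, 445.6 and 265.62 TPM in ΔAgo2 replicates 1 to 4. Wild-type replicate 2 lay within the ΔAgo2 range. Its log2 fold change was -0.74 with a standard error of 0.32 (edgeR's quasi-likelihood test, adjusted p = 0.657), and -0.60 without wild-type replicate 4. The 7 genes of the ARF-MDM2-p53 axis had a median log2 fold change of -0.42 and 0 calls, but a median of 0.17 on log2(TPM + 1) and 0.19 on log2(TPM + 0.1). The smallest p among them was that of Tbx2, a T-box repressor of the locus with 12 to 197 counts, at a log2 fold change of -1.91 with a standard error of 0.60 (edgeR, adjusted p = 0.411).

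The CDK2 arm that p27 acts on was expressed as well, except Ccna1, the gene of cyclin A1, which had 0 counts in every library. Cdk2 had a log2 fold change of 0.04 (edgeR, adjusted p = 0.981), and 0.11 without wild-type replicate 4, and Ccne1, the gene of cyclin E1, of -0.95 (adjusted p = 0.706), and -0.38 without wild-type replicate 4. Skp2, whose product marks p27 for degradation, stood at 14.29, 30.71, 11.21 and 8.18 TPM in wild-type and at 36.05, 32.33, 21.92 and 26.77 TPM in ΔAgo2 replicates 1 to 4. Wild-type replicate 2 lay within the ΔAgo2 range, and the log2 fold change was 0.74 with a standard error of 0.32 (edgeR's quasi-likelihood test, adjusted p = 0.665). Its cofactor Cks1b had a log2 fold change of -0.30 (edgeR, adjusted p = 0.834), and 0.072 without wild-type replicate 4. The 9 tested genes of p27 turnover had a median of 0.065, and the 7 FOXO and AKT genes that act on p27 a median of -0.15, with 0 calls in both.

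Downstream, the pocket proteins, which INK4 activity keeps in their repressive form, showed no called change. Rb1 was counted 1713, 1659, 3650 and 91 times in wild-type and 1395, 805, 960 and 1063 times in ΔAgo2 replicates 1 to 4. Wild-type replicate 4 was far below every other library, and the log2 fold change of -0.43 (standard error 0.63, edgeR's adjusted p = 0.872) was -0.80 without it. Rbl1 and Rbl2 had log2 fold changes of 0.46 and -0.04 (edgeR, adjusted p = 0.818 and 0.983), which were 0.24 and -0.27 without wild-type replicate 4, and Rbl1 was at 1.11 without wild-type replicate 2. Of the 10 E2F and DP factors 9 were above 0, with a median of 0.36, and of the 16 E2F response genes 8 were above and 8 below 0, with a median of -0.094. The median of the E2F response genes became 0.42 without wild-type replicate 4.

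**Figure D5:**
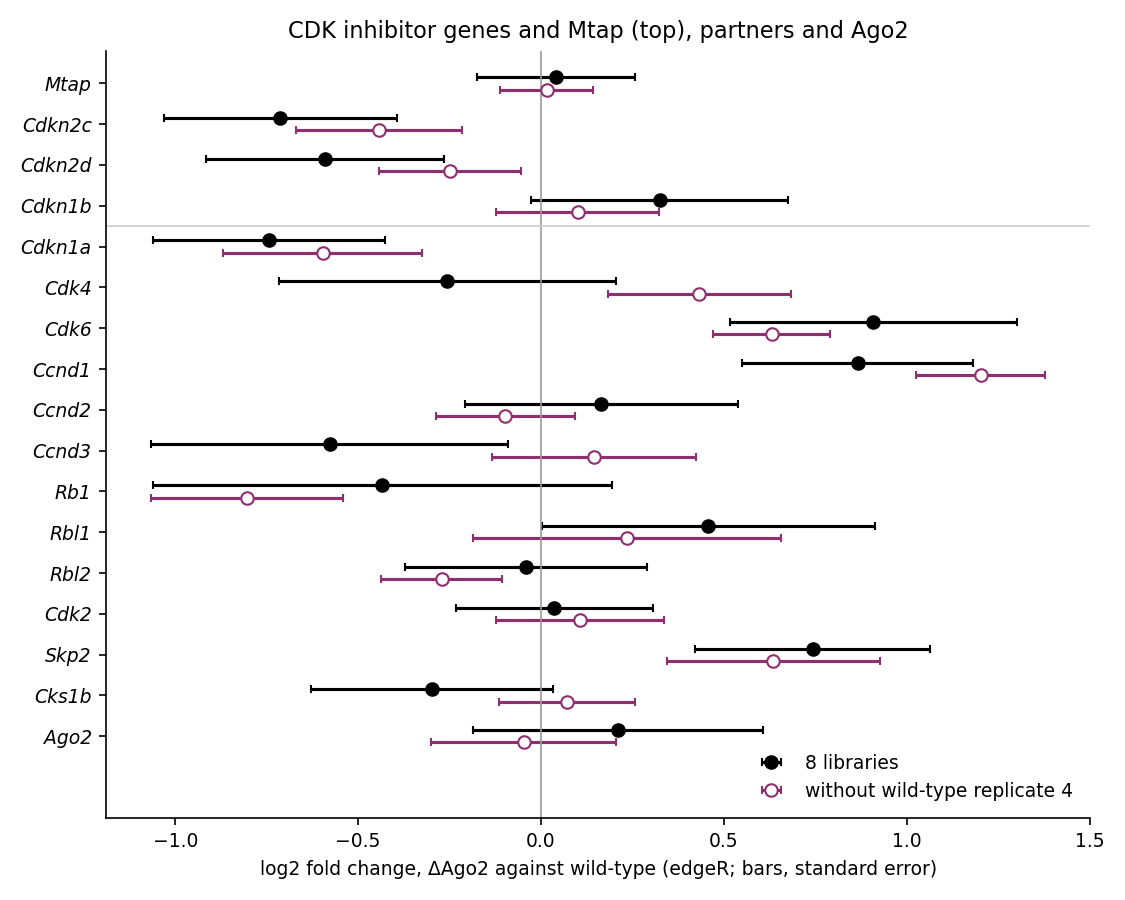
Log2 fold change of ΔAgo2 against wild-type (horizontal axis, edgeR) with its standard error for the 4 tested members, 12 genes around them and Ago2, over all 8 libraries (filled) and without wild-type replicate 4 (open). Ccnd1 moves from 0.87 to 1.20, Cdk4 from -0.26 to 0.43, and Cdkn2c from -0.71 to -0.44.

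Genes that are known to act on the Ink4-Arf locus were present on both sides. All 17 Polycomb and other repressor genes of the list were tested, with a median log2 fold change of 0.035, 10 above and 7 below 0. The smallest p belonged to Id1 and Cbx8, at log2 fold changes of -0.85 and -0.75 (edgeR, adjusted p = 0.706 and 0.739), which were -0.54 and -0.090 without wild-type replicate 4. The 11 activator genes had a median of -0.053, and Zbtb17, which encodes MIZ1, had -0.63 (edgeR, adjusted p = 0.732), and -0.18 without wild-type replicate 4. Over all lists, 103 genes were tested. DESeq2, which called 399 of 27620 genes in all, called 1 of the 103 (Tbx2), and edgeR called 0. With edgeR, 3 were higher and 2 lower at an unadjusted p under 0.05, where 2.72% of all tested genes were higher and 4.62% lower, and the median log2 fold change was 0.0031 against -0.11 for all tested genes. Without wild-type replicate 4 these medians were 0.10 and -0.037, that of the methionine genes was 0.085, of p27 turnover 0.12, of the FOXO and AKT genes -0.026, of the repressors 0.0086 and of the activators 0.0058.

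Within 1 Mb of the locus, 9 genes were tested, and edgeR called 0 at an adjusted p under 0.05 and 1 at an unadjusted p under 0.05, against 7.34% of all tested genes. Gm12602, a noncoding gene next to Mtap, was counted 434, 390, 367 and 93 times in wild-type and 680, 403, 464 and 486 times in ΔAgo2 replicates 1 to 4. In CPM the genotypes did not overlap, and its log2 fold change was 0.86 with a standard error of 0.37 (edgeR's quasi-likelihood test, adjusted p = 0.657). AL805899.2, as the only other of the 9 apart in CPM (3.09% of all tested genes were apart and higher), had 9 to 37 counts in wild-type and 29 to 66 in ΔAgo2 libraries and a log2 fold change of 1.07 (edgeR, adjusted p = 0.678). Wincr1, AL805899.1 and Gm12606 had log2 fold changes of 1.14, 0.43 and 0.65, and Klhl9, Focad and Hacd4 of -0.33, -0.20 and -0.03. Without wild-type replicate 4, AL805899.1 was at 0.19, Gm12606 at 0.31, Klhl9 at -0.65 and Hacd4 at -0.18.

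Ago2 loads microRNAs, and p27 is a known target of miR-221 and miR-222, so the transcripts were searched for their site. Both mature sequences are encoded on the minus strand of chromosome X and share the seed, bases 2 to 8, shown in capitals.
mmu-miR-221-3p: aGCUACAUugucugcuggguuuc
mmu-miR-222-3p: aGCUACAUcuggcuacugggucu
The matching site ATGTAGC, in capitals in its context, occurred 1 time in the 3439 bases of the Cdkn1b 3′ untranslated region, at chr6:134924431-134924437 on the plus strand.
Cdkn1b: cctctaaaagcattggATGTAGCatt
The 3′ untranslated regions of the other 5 members, 264 to 1575 bases long, held 0 matches. Of those of 21045 protein-coding genes, with a median of 960 bases, 9.45% held at least 1. The longer a region, the more places it has for a match, and length was not accounted for. A match is a description of sequence, and the microRNAs themselves were not analysed here.

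The profile of each detected member over the 8 libraries was compared with those of all tested genes by Pearson's r of log2 CPM, as a description in which depth, GC bias and wild-type replicate 4 are shared by all points. Closest to Cdkn2d were Trappc1 and Tead3 (r = 0.985 and 0.981), and closest to Cdkn1b were Gm10060 and Atf6 (r = 0.992 and 0.988). Closest to Cdkn2c were Hdhd5 and Fuom (r = 0.973 for both), and closest to Mtap were Ccdc78 and Filip1l (r = 0.968 and 0.950).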

How the data were processed

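RNA-seq libraries of cultured LLC cells, 4 wild-type and 4 ΔAgo2, were grouped by their labels. The authors prepared stranded mRNA libraries, aligned paired reads to ribosomal RNA and then to mm10 (STAR is named in the submitters' processing notes), and counted reads per gene with featureCounts. They deposited these whole counts without normalization, and TPM values scaled to gene length and depth. The annotation release and strand setting are not given in the sources used here, so overlapping and antisense genes may share reads. Identifiers were matched without their version to GENCODE M21 on GRCm38, and 93 had no symbol.

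Genes were filtered with filterByExpr, scaled with TMM and tested with edgeR 4.0.16 (R 4.3.3; quasi-likelihood, two-sided, genotype as the only factor, Benjamini-Hochberg adjustment over 14228 genes, threshold 0.05). CPM are counts over TMM-scaled library sizes, except in the limits given for 0 counts, which use unscaled totals. Standard errors are the fold change over the square root of F. Single values were compared with exact permutation tests over the 70 splits of 8 libraries (Python 3.11.15, numpy 2.4.6). Spearman correlations were computed with scipy 1.17.1. Promoters and microRNAs come from RefSeq (GRCm38.p6), where all 6 members had a promoter. Scripts were tested on simulated data.

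The members and lists were chosen with earlier results of these data known. The genes named are the members, Ago2, the direct partners, detected neighbours, at most 2 genes of each other list (by smallest unadjusted p) and 2 genes with a like profile for each member. Defining cell markers and genes at 0 counts were named beside these. Alternatives were DESeq2 1.42.0, limma 3.58.1 on voom or log2(TPM + 0.1 or 1), other scalings and filters, a GC correction, the replicate block and single libraries left out. Same-numbered libraries did not pair (correlations of their deviations -0.14 to 0.38).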

Additional observations from a re-analysis of the deposited data

Results flagged for a closer look

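A library stood far from the others of its group for 2 of the 54 groups of 4 libraries examined (the tested members, their partners and the tested neighbours in each genotype, and the INK4 sum and share), where chance marks about 1 in 20. In wild-type libraries, the gap between the highest library and the next, as a share of the whole range, was 0.99 for Ccnd1, with wild-type replicate 4 the highest. In ΔAgo2 libraries, the gap of the lowest library was 0.863 of the range for AL805899.1, with ΔAgo2 replicate 4 the lowest. Both are above Dixon's critical value for 4 libraries.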

How the results depend on the processing

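Under all 21 alternatives, 0 of the 4 tested members were called at an adjusted p under 0.05, and of the 3 locus genes only Mtap was detected under the 11 that bear on it. Cdkn2c and Cdkn2d kept a negative and Cdkn1b a positive fold change under all 21. Mtap turned to -0.20 with the GC correction and -0.16 with the GC correction and replicate block. Genes called in all (42, with 11 higher and 31 lower) became 399 (133 and 266) with DESeq2, 143 (39 and 104) without a filter, 6 (2 and 4) with CPM over 1, 68 (26 higher) with the GC correction, 65 (23 higher) with the GC correction and replicate block and 15 (7 lower) on log2(TPM + 1). On log2(TPM + 0.1), 17 were higher. DESeq2 called 1 gene of the ARF-MDM2-p53 axis, Tbx2. The replicate block, on numbers that did not pair the libraries, gave 18 calls (4 higher, 14 lower), 17 of them among the 42, and changed no call of a named gene. Leaving out a library gave 1 to 113 calls (1 to 42 higher, 0 to 71 lower): 12 without wild-type replicate 1, 78 without wild-type replicate 2, 113 without wild-type replicate 4, 1 without ΔAgo2 replicate 1, and 7 without ΔAgo2 replicate 2, 3 or 4. Without wild-type replicate 4, Ccnd1 was 1 call among the INK4 targets, at 1.20.

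The median of all tested genes moved from the main fit by 0.14 with limma-voom, 0.13 with the block, and 0.26 and 0.33 on log2(TPM + 1) and log2(TPM + 0.1). In that order, Cdk4 turned to 0.033, 0.049, 0.24 and 0.24, Rb1 to 0.076, 0.033, 0.20 and 0.36, and Rbl2 to 0.0355, 0.049, 0.24 and 0.26. Cks1b turned to 0.020 on both TPM scales, where the median of the ARF-MDM2-p53 axis turned from -0.42 to 0.17 and 0.19 and that of the FOXO and AKT genes from -0.15 to 0.17 and 0.17. The median of the INK4 targets became 0.31, 0.51 and 0.52 with limma-voom and the 2 TPM scales and 0.41 and 0.43 without wild-type replicates 3 and 4, and on the TPM scales that of p27 turnover became 0.29 and 0.30 and that of the repressors 0.25 and 0.37. Cdk4 turned to 0.072 with the GC correction and 0.19 with the GC correction and block, Rbl2 to 0.021 with library sizes alone and Cdk2 to -0.051 with the GC correction. With a library left out, ranges were -0.52 to 0.43 for Cdk4, -0.098 to 0.41 for Ccnd2, -0.84 to 0.15 for Ccnd3, -0.80 to 0.067 for Rb1, -0.27 to 0.13 for Rbl2, 0.24 to 1.11 for Rbl1, -0.091 to 0.20 for Cdk2, -0.49 to 0.072 for Cks1b and -0.047 to 0.60 for Ago2. The difference in share was -4.98 to 1.33 percentage points for Cdkn2c and -1.33 to 4.98 for Cdkn2d. The causes were not tested. For Cdkn2a and Cdkn2b, depth limits what could have been detected. Their longest transcripts hold 60.2% and 55.9% GC, and the part of GC bias in their detection was not tested.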
